A study of Homo sapiens with 45 samples.

Results

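The libraries compared here were made from whole-cell RNA of HCT116, an epithelial cell line from a human colorectal carcinoma, in which TNRC6A was knocked out (TNRC6A KO, genotype TNRC6A-/-, n = 3), and of HCT116 cells with no such change (WT, n = 3). They were chosen by their labels and make up 6 of the 24 whole-cell small RNA libraries and of the 45 libraries of the series. Cells with TNRC6B knocked out (TNRC6B KO, n = 3) or with both genes knocked out (TNRC6A/B KO, n = 3) were used for direct comparison. Cells of every group grew in McCoy's 5A medium with serum, and total RNA was taken with Trizol and turned into small RNA libraries with the TruSeq kit. The labels number biological replicates 1 to 3 and name neither the clone of a knockout nor a batch of libraries. A further 12 whole-cell libraries came from cells with Argonaute genes knocked out (AGO-knockout libraries). These cells lacked AGO1, AGO2, AGO1 with AGO2, or AGO1 with AGO2 and AGO3 (n = 3 each). Their libraries were in the joint fit and gave a comparison range for class shares and GC content. Immunoprecipitates of AGO1 or AGO2, from WT cells and from cells lacking that protein, served to compare miRNA levels. The edgeR and limma p-values rest on a spread pooled over all 24 whole-cell libraries of 8 groups, and permutation p-values on the groups compared. Both measure the spread between samples, and the samples of a knockout may come from 1 clone. The question was which mature miRNAs, and which other small RNAs, differed between cells without TNRC6A and WT cells.

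TNRC6A is one of the GW182 proteins, whose glycine-tryptophan repeats bind Argonaute proteins and which recruit the deadenylases that shorten the tails of targeted mRNAs. miRNAs are cut from hairpins in primary transcripts by DROSHA with DGCR8, exported by exportin-5, cut again by DICER1, and one strand of each duplex is kept by an Argonaute protein. Bases 2 to 8 of that strand, the seed, pair with targets. TNRC6A, TNRC6B and TNRC6C are paralogs in human cells. snoRNAs guide the chemical modification of ribosomal RNA, and Y RNAs, vault RNAs and tRNA fragments are further small RNAs that such libraries sample.

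The mature sequences below carry the main results, with the seed (bases 2 to 8) in capitals. They were taken from RefSeq on GRCh38.p14, which had a sequence for 1771 of the 1990 miRNAs tested, and their surroundings from GENCODE v29. The first set holds the 5 largest rises in TNRC6A KO cells: miR-3684 in an intron of METAP1 at chr4:98997434-98997454 (plus strand), miR-5089-5p in an intron of GOSR2 at chr17:46973027-46973047 (plus), miR-4291 between genes at chr9:93819367-93819382 (plus), miR-6863 in an intron of SLC12A3 at chr16:56904327-56904349 (plus) and miR-5699-3p in an intron of DIP2C at chr10:641699-641720 (minus).
miR-3684: uUAGACCUaguacacguccuu
miR-5089-5p: gUGGGAUUucugaguagcauc
miR-4291: uUCAGCAGgaacagcu
miR-6863: uAGACGUGgugaaggauugagug
miR-5699-3p: uCCUGUCUuuccuuguuggagc

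The second set holds the 5 furthest falls among miRNAs with a sequence and over 3 counts in each group: miR-6787-5p in an exon of SLC16A3 at chr17:82236673-82236694 (plus), miR-5584-3p in an intron of RNF220 at chr1:44545531-44545552 (plus), miR-1469 in an exon of NR2F2 at chr15:96333261-96333282 (plus), miR-6729-3p in an intron of MIIP at chr1:12029202-12029222 (plus) and miR-563-5p between genes at chr3:15873822-15873840 (plus).
miR-6787-5p: uGGCGGGGguagagcuggcugc
miR-5584-3p: uAGUUCUUcccuuugcccaauu
miR-1469: cUCGGCGCggggcgcgggcucc
miR-6729-3p: uCAUCCCCcucgcccucucag
miR-563-5p: aGGUUGACauacguuuccc

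The third set shows abundant miRNAs, grouped by seed: let-7a-5p, let-7f-5p and let-7b-5p, which share one seed and did not pass the test, miR-23a-3p and miR-23b-3p, which share another and rose, and miR-93-5p, of the miR-17 seed group. let-7a-5p has 3 loci, of which chr9:94175962-94175983 (plus) lies in an intron of AL158152.2, and let-7f-5p lies in the same intron at chr9:94176353-94176374 (plus). let-7b-5p lies in an exon of MIRLET7BHG at chr22:46113691-46113712 (plus), miR-23a-3p in an exon of AC020916.1 at chr19:13836595-13836615 (minus), miR-23b-3p in an intron of C9orf3 at chr9:95085265-95085287 (plus) and miR-93-5p in an intron of MCM7 at chr7:100093815-100093837 (minus).
let-7a-5p: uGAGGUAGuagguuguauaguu
let-7f-5p: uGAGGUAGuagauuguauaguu
let-7b-5p: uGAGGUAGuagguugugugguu
miR-23a-3p: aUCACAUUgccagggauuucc
miR-23b-3p: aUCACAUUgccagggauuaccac
miR-93-5p: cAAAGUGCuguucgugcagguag

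The fourth set separates TNRC6A KO cells from one of the other TNRC6 knockouts. miR-302b-3p and miR-302a-5p come from a single cluster in an intron of AC106864.1, at chr4:112648489-112648511 and chr4:112648224-112648246 (both minus). miR-139-5p lies in an intron of PDE2A at chr11:72615102-72615124 (minus), miR-1286-5p in an intron of RTN4R at chr22:20249145-20249165 (minus), miR-942-5p in an intron of TTF2 at chr1:117094655-117094676 (plus) and miR-224-5p in an exon of GABRE at chrX:151958628-151958652 (minus).
miR-302b-3p: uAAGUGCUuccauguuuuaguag
miR-302a-5p: aCUUAAACguggauguacuugcu
miR-139-5p: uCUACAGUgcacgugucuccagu
miR-1286-5p: uGCAGGACcaagaugagcccu
miR-942-5p: uCUUCUCUguuuuggccaugug
miR-224-5p: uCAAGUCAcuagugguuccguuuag

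The 6 libraries held 3086455 to 5527934 counts in all, of which 259729 to 470431 fell on mature miRNAs. The composition of the libraries divided the series: the snoRNA, cytosolic tRNA, mitochondrial tRNA, Y RNA and rRNA shares of the TNRC6A KO, TNRC6B KO and TNRC6A/B KO libraries all lay outside the range of the WT and the AGO-knockout whole-cell libraries. No label gives a batch, so a batch of libraries that holds the TNRC6 knockouts and the loss of a TNRC6 protein cannot be told apart in any comparison with WT below. The direct comparisons among TNRC6 knockouts do not cross that division. Fragments of the TNRC6A mRNA were at 84.2, 123 and 102 CPM of mRNA counts in TNRC6A KO, against 195, 237 and 173 in WT. On this scale all TNRC6A KO libraries lay below all WT libraries, at 0.512 of the WT mean. This ratio rests on 96 and 157 counts (two-sided exact permutation p = 0.1, the smallest that 3 against 3 allows). As CPM of all counts, TNRC6A fragments were at 5.18, 7.76 and 7.96 in TNRC6A KO and 9.14, 12.7 and 7.65 in WT, with overlap. Fragments outside the deleted part can remain. TNRC6B fragments were at 300, 319 and 360 CPM of mRNA counts in TNRC6A KO and 339, 321 and 337 in WT, and the groups overlapped. TNRC6C fragments, from the third paralog, were at 121, 123 and 116 CPM of mRNA counts in TNRC6A KO and 66.3, 76.6 and 74.1 in WT, without overlap (ratio 1.66, exact permutation p = 0.1), on 109 and 56 counts. The processing enzymes DROSHA, DICER1 and XPO5 and the Argonautes AGO1, AGO2 and AGO3 overlapped between the groups in these fragments, with exact permutation p from 0.3 to 0.8. DGCR8 fragments were at 40.9 ± 1.33 CPM of mRNA counts in TNRC6A KO and 28.2 ± 6.65 in WT (SD, n = 3 each), without overlap (ratio 1.45, exact permutation p = 0.1), on 37 and 22 counts.

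Epithelial miRNAs were present in both groups: miR-200c-3p had 2431, 3244 and 3568 counts in TNRC6A KO and 3571, 3684 and 3119 counts in WT. The epithelial miR-141-3p was scarcer, with 20, 63 and 35 counts in TNRC6A KO and 25, 23 and 20 in WT. Some miRNAs of blood cells were near 0, with 4, 8 and 4 counts of the red-cell miR-451a in TNRC6A KO and 3, 1 and 0 in WT, and 6, 10 and 6 counts of the myeloid miR-223-3p against 6, 7 and 6. The neural miR-124-3p had 4, 6 and 7 counts in TNRC6A KO and 8, 4 and 7 in WT. Other markers were not near 0: the neural miR-128-3p had 350, 533 and 482 counts in TNRC6A KO and 476, 437 and 387 in WT, and the endothelial miR-126-3p 242, 364 and 350 in TNRC6A KO and 293, 275 and 306 in WT. The blood miR-142-5p had 24, 24 and 27 counts in TNRC6A KO and 14, 15 and 11 in WT.

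Mature miRNAs took a larger share of the TNRC6A KO libraries. They made up 9.98, 9.47 and 8.51% of all counts in TNRC6A KO, 7.94, 7.27 and 8.40% in TNRC6B KO, 8.17 to 13.2% in TNRC6A/B KO, and 5.36, 5.67 and 4.73% in WT. Every TNRC6A KO library was above every WT library and every TNRC6B KO library, and TNRC6A KO overlapped with TNRC6A/B KO. With Ensembl transcripts left out of the total, TNRC6A KO and TNRC6B KO overlapped (exact permutation p = 0.2). The mean was 1.77 times that of WT and 1.18 times that of TNRC6B KO (two-sided exact permutation p = 0.1 for each, the smallest possible). In the AGO-knockout libraries the share was 1.46 to 4.13%. These are shares of a library: fewer cells that carry an RNA, less of it per cell and more of other RNAs cannot be told apart.

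Of 2817 mature miRNAs in the files, 1990 passed the filter on low counts and 827 did not. Levels of single miRNAs are given as CPM of mature miRNA counts after TMM scaling, and differences as log2 fold changes of TNRC6A KO over WT from edgeR's quasi-likelihood test over all 1990, with Benjamini-Hochberg adjusted p. At an adjusted p under 0.05, 472 miRNAs rose in TNRC6A KO cells (23.7% of those tested) and 363 fell (18.2%). The 3 libraries of the groups did not overlap for 1099 miRNAs (55.2%). Scaling by the miRNA total gave 352 higher and 390 lower, and scaling by all counts of the library, in which the median miRNA was 0.72 higher in TNRC6A KO cells on the log2 scale, gave 763 higher and 188 lower. On all 3 scales, 350 miRNAs were called higher and 188 lower. The miRNAs called higher together made up 23.2% of the mean CPM of TNRC6A KO and 9.55% of that of WT, and those called lower 4.21% in TNRC6A KO and 16.5% in WT.

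**Figure D1:**
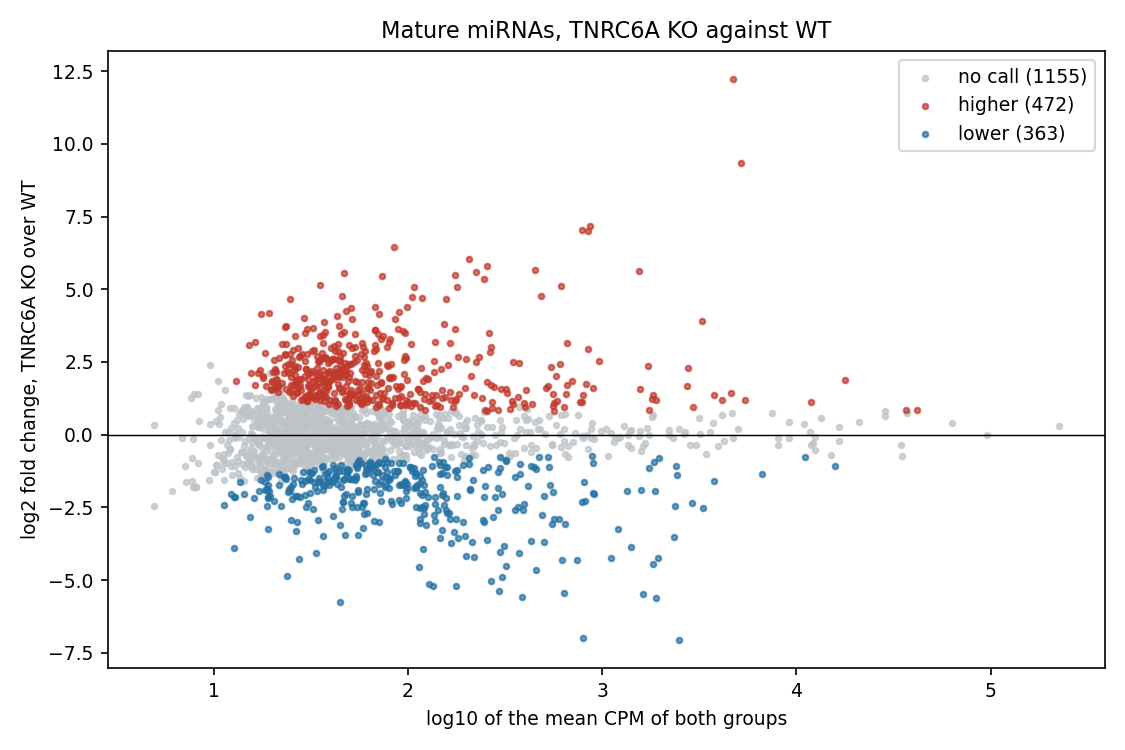
Each point is 1 of the 1990 miRNAs tested: its mean level over TNRC6A KO and WT libraries (log10 CPM) against its log2 fold change, TNRC6A KO over WT. Coloured points are the 472 called higher and the 363 called lower; grey points are the 1155 with no call, and most of the extreme changes sit at low or middle levels.

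The calls depended on the level in WT. Among 512 miRNAs under 20 CPM in WT, 255 rose and 1 fell; among 968 at 20 to 100 CPM, 150 rose and 154 fell; and among 395 at 100 to 1000 CPM, 53 rose and 171 fell. Of the 93 at 1000 to 10000 CPM, 12 rose and 35 fell. Of the 22 at 10000 CPM or more, 2 rose and 2 fell, and their median log2 fold change was 0.03. The filter itself shapes the lowest class, since a miRNA low in WT passed it more often where another group was high. The 10 most abundant miRNAs of WT held 50.9, 48.7 and 49.6% of the miRNA counts in TNRC6A KO and 46.9, 48.9 and 45.7% in WT, with overlap (exact permutation p = 0.2).

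The largest rises, of miR-3684 and miR-5089-5p, were of miRNAs nearly absent from WT cells. miR-3684 had 4472, 9012 and 14844 CPM in TNRC6A KO, against 0, 0 and 4.42 CPM in WT. The 8956 counts in TNRC6A KO against 1 in WT gave a ratio of 6958, with a 95% counting interval of 1249 to 274864. Its mean was 5665 CPM in TNRC6B KO and 6968 CPM in TNRC6A/B KO, so it was high in each TNRC6 knockout. miR-5089-5p had 6450, 9996 and 14697 CPM in TNRC6A KO and 16.1, 17.2 and 13.3 CPM in WT. All 3 TNRC6A KO libraries were far above WT, by 9.33 ± 0.51 on the log2 scale (SE, adjusted p = 2.5e-18), and the mean was 12785 ± 1798 CPM in TNRC6B KO and 10057 ± 5480 CPM in TNRC6A/B KO (SD, n = 3 each).

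Other large rises followed the same layout, without overlap between the groups, which was a condition for naming them. miR-4291 had 1431, 2104 and 1641 CPM in TNRC6A KO and 16.1, 8.61 and 8.84 CPM in WT, a rise of 7.19 ± 0.62. miR-6863 had 970, 1562 and 2140 CPM in TNRC6A KO and 16.1, 8.61 and 8.84 CPM in WT, a rise of 7.04 ± 0.46. miR-7515 had 1592, 2660 and 4807 CPM in TNRC6A KO and 56.3, 68.8 and 57.4 CPM in WT, a rise of 5.62 ± 0.42. Each was high in all 3 TNRC6A KO libraries, and miR-4291 and miR-6863 were low in WT. In WT, miR-7515 lay above the median of 38.4 CPM over all miRNAs tested. miR-5699-3p rose by 6.99 ± 0.55, miR-527-3p by 6.05 ± 0.59, miR-4703-5p by 5.66 ± 0.53 and miR-6841-5p by 5.60 ± 0.52. miR-486-3p, whose partner strand is a red-cell miRNA, rose 55.8-fold. miR-4420-5p had 158 counts in TNRC6A KO and 1 in WT (ratio 123, interval 21.7 to 4879), and miR-4670-5p had 83 and 1 (ratio 64.5, interval 11.3 to 2577). The intervals cover counting error only, as reads without molecular identifiers are not independent molecules.

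The largest falls were of miRNAs that WT cells held well above 20 CPM. miR-6787-5p had 42.3, 35.9 and 32.0 CPM in TNRC6A KO and 4538, 3851 and 6331 CPM in WT. It fell by 7.05 ± 0.57 on the log2 scale (adjusted p = 3.9e-13). miR-3195 had 55.1, 94.0 and 73.6 CPM in TNRC6A KO and 3645, 2565 and 4970 CPM in WT. In both, the TNRC6A KO libraries were all under 100 CPM and the WT libraries all above 2000 CPM. miR-1469 had 63.5, 52.5 and 96.0 CPM in TNRC6A KO and 3009, 2177 and 4334 CPM in WT, a log2 fold change of -5.48 ± 0.45. miR-6729-3p had 21.2, 24.9 and 38.4 CPM in TNRC6A KO and 1110, 1493 and 1149 CPM in WT, a log2 fold change of -5.43 ± 0.49. The groups were separate for each of them, as the choice of named falls required. miR-5589-5p (-6.98 ± 0.60), miR-5584-3p (-5.58 ± 0.60), miR-563-5p (-5.39 ± 0.59), miR-1225-3p (-5.22 ± 0.57), miR-6131 (-5.21 ± 0.57), miR-4533-3p (-5.12 ± 0.63) and miR-4632-3p (-5.03 ± 0.46) made up the rest with miR-520b-5p, which had 1 count in TNRC6A KO and 62 in WT (WT over TNRC6A KO 79.8, interval 13.8 to 3202).

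**Figure D2:**
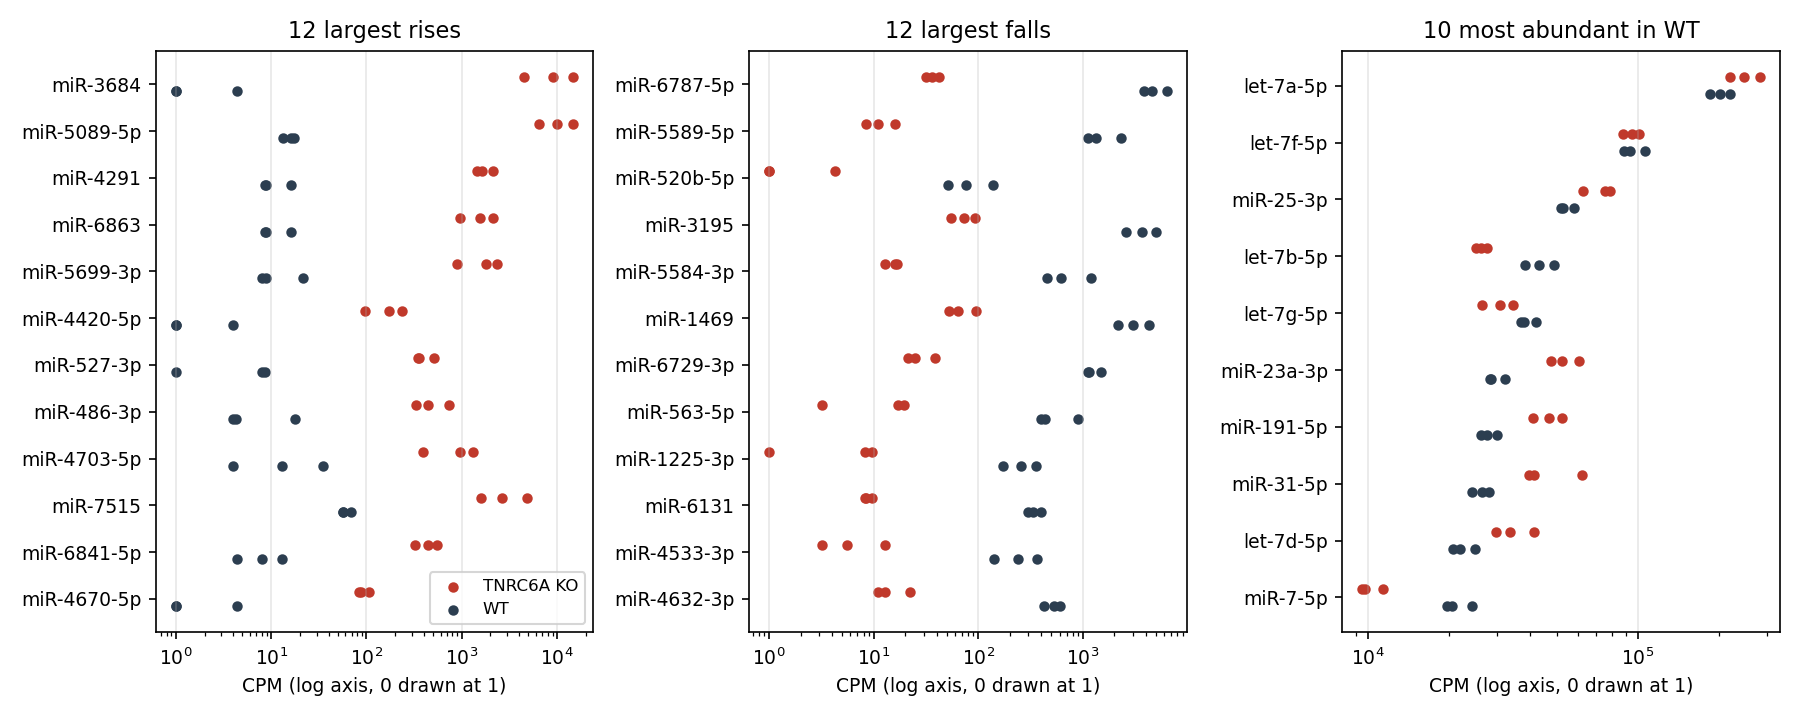
CPM (log axis) of the 12 largest rises, the 12 largest falls and the 10 most abundant miRNAs of WT, 1 point per library of TNRC6A KO and WT. The first pair of panels holds miRNAs picked for adjusted p under 0.05 and no overlap, so that choice fixed that their groups stand apart. The most abundant miRNAs were picked without that rule, and their points lie closer. For example, let-7f-5p lay at 88125 to 100800 CPM in TNRC6A KO and 88460 to 106070 CPM in WT.

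Among the most abundant miRNAs the differences were small. let-7a-5p, a let-7 family member that restrains growth genes, had 247420, 220190 and 283140 CPM in TNRC6A KO and 201570, 219950 and 184310 CPM in WT, a log2 fold change of 0.31 ± 0.33 (adjusted p = 0.49). The lowest TNRC6A KO library lay just above the highest WT library. On the scale of all counts its change was 0.96 (adjusted p = 0.014), so the call follows the scale. let-7f-5p (-0.02 ± 0.30), miR-25-3p (0.42 ± 0.32), let-7b-5p (-0.72 ± 0.35), let-7g-5p (-0.35 ± 0.31), miR-191-5p (0.73 ± 0.34) and let-7d-5p (0.63 ± 0.32) did not pass either. miR-23a-3p had 52147, 47750 and 60732 CPM in TNRC6A KO and 28604, 32237 and 28322 CPM in WT, and rose by 0.85 ± 0.32 (adjusted p = 0.031). miR-31-5p, abundant in colorectal tumours, rose by 0.86 ± 0.34 (adjusted p = 0.042). miR-7-5p had 9787, 9529 and 11354 CPM in TNRC6A KO and 19584, 24264 and 20423 CPM in WT, without overlap. It fell by 1.07 on the log2 scale (adjusted p = 0.0023), and its change was -0.41 (adjusted p = 0.24) on the scale of all counts, where the call is lost, and 0.19 with rRNA left out of the total.

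Further miRNAs at 1000 CPM or more in WT changed more. miR-93-5p, of the miR-106b/25 cluster that acts on cell cycle genes, had 18163, 21093 and 44621 CPM in TNRC6A KO and 7173, 7986 and 7426 CPM in WT. All TNRC6A KO libraries were higher, the third most, and the rise was 1.89 ± 0.34 (adjusted p = 1.4e-05). miR-29a-3p rose by 1.13 ± 0.37, miR-23b-3p by 1.19 ± 0.34 and miR-331-3p by 1.43 ± 0.39 (adjusted p = 0.013, 0.0039 and 0.0031). Falls were larger. miR-4454 had 767, 246 and 138 CPM in TNRC6A KO and 4256, 3416 and 5257 CPM in WT (log2 fold change -3.51 ± 0.56), and miR-3196 had 152, 202 and 233 CPM in TNRC6A KO and 3846, 2724 and 4519 CPM in WT (-4.23 ± 0.35). miR-1260b (-2.53 ± 0.35), miR-4322 (-2.45 ± 0.32), miR-4483 (-2.35 ± 0.34) and miR-4455 (-1.60 ± 0.32) fell too. Whether reads of these falling rows, miR-4454 and miR-1260b among them, come from cytosolic tRNA was not tested.

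Families were compared by their counts and their median log2 fold change, beside 472 rises, 363 falls and a median of 0.07 over all 1990 miRNAs tested. On the scale of all counts these medians lay higher, and those of let-7 (0.45), miR-200 (0.13), the Microprocessor-independent (0.32) and the neural miRNAs (0.27) were then above 0. On the miRNA total they lay lower, and those of the miR-15/16 family (-0.09), the miR-10 to miR-125 families (-0.15), the 14q32 cluster (-0.03) and all miRNAs tested (-0.09) were below 0. In the let-7 family, 0 of 20 members tested rose and 2 fell (median -0.21), against 8 and 1 on the scale of all counts and 0 and 4 on the miRNA total. The 2 falls were of the passenger strand let-7b-3p (-1.89) and miR-202-3p (-1.48), named after their values were seen. The 10 miRNAs tested that carry the let-7 seed GAGGUAG gave no call. The miR-200 family, which keeps cells epithelial, had 0 rises and 2 falls among 9 (median -0.52; 1 and 0 on the scale of all counts, 0 and 5 on the miRNA total). miR-200c-3p had 10295, 8970 and 11412 CPM in TNRC6A KO and 14366, 15852 and 13779 CPM in WT, lower in every TNRC6A KO library, at -0.52 ± 0.28 (adjusted p = 0.13). miR-200b-3p was at 0.25 ± 0.29 and miR-429 at -0.10 ± 0.32.

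The miR-17-92 cluster and its paralogs, which promote proliferation, had 7 rises and 3 falls among 23 (median 0.18; 12 and 2 on the scale of all counts). Of the 5 miRNAs tested with the seed AAAGUGC, shared by miR-93-5p and miR-17-5p, 4 rose and none fell (median 1.35). miR-17-5p had 3816, 4181 and 8233 CPM in TNRC6A KO and 1895, 2431 and 1979 CPM in WT, a rise of 1.36 ± 0.31 (adjusted p = 0.00042), and its groups did not overlap. miR-92a-3p, cut from the same transcript, was at -0.35 ± 0.30 (adjusted p = 0.37). The difference between these strands was not tested. The miR-130/301/454 seed AGUGCAA had 3 rises of 4 (median 1.31), and the miR-548 seed AAAGUAA 5 of 9 (median 1.04). The seed GGCGGGG of miR-6787-5p had 1 rise and 4 falls among 5 (median -2.80), and CCUCUCU had 3 falls of 4 (median -1.81). Not every seed group moved to 1 side: CUGGACU had 0 rises and 0 falls among 5 and AUUGCAC 1 and 0 among 5. AAGUGCU had 3 and 1 among 7.

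Among 11 strands of the miR-23/27/24 clusters, 5 rose and 2 fell (median 0.80). miR-27a-3p had 1215, 1341 and 659 CPM in TNRC6A KO and 499, 516 and 468 CPM in WT, a rise of 1.11 ± 0.32, while miR-24-3p was at 0.80 ± 0.35 (adjusted p = 0.061). The groups of miR-27a-3p were separate. The miR-15/16 family, which targets BCL2 and cyclins, had 4 rises and 1 fall among 13 (median 0.06): miR-15b-3p rose by 1.18 ± 0.30, while miR-16-5p was at 0.06 ± 0.32 and miR-15a-5p at -0.07 ± 0.28. The miR-30 family had 4 rises and 2 falls among 11 (median 0.18). In its hairpin miR-30b the 5p strand had 398, 492 and 537 CPM in TNRC6A KO and 165, 168 and 150 CPM in WT, a rise of 1.56 ± 0.30. The 3p strand fell, at -1.36 ± 0.31, so the strands moved apart. The miR-10 and miR-100 families with miR-99 and miR-125 had 3 rises and 1 fall among 13 (median 0.02), with miR-100-5p at 0.02 ± 0.36 and miR-125b-5p at 0.38 ± 0.39.

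The list of miRNAs linked to colorectal cancer had 4 rises and no fall among 17 (median 0.23; 9 and 0 on the scale of all counts), with miR-21-5p at 15605, 12070 and 7030 CPM in TNRC6A KO and 18554, 17650 and 19610 CPM in WT. Every TNRC6A KO library of miR-21-5p was lower, but the difference did not pass (-0.69 ± 0.34, adjusted p = 0.10), and miR-221-3p (0.58 ± 0.35) and miR-222-3p (-0.22 ± 0.35) did not pass either.

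miRNAs made without the Microprocessor, such as mirtrons spliced out as short introns, had 3 rises and 9 falls among 35 (median -0.32), against 8 and 7 on the scale of all counts. miR-320a-3p had 1139, 1120 and 1535 CPM in TNRC6A KO and 2599, 2229 and 2483 CPM in WT, and fell by 0.95 on the log2 scale (adjusted p = 0.0096), but its change was 0.30 with rRNA left out of the total. Its groups were separate. The mirtron miR-877-5p was at 0.09 ± 0.31, and miR-1229-3p rose by 1.40 ± 0.31. The 242 predicted mirtrons that were tested had 32 rises and 64 falls (median -0.49 on the TMM scale and 0.14 on the scale of all counts, where 53 were higher and 30 lower). miR-6869-5p fell furthest of their 4 most abundant members (-3.86 ± 0.36), with miR-6789-5p at -1.62 ± 0.35.

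Further lists hold miRNAs of other cell types and of large clusters. The miR-302/367 and miR-371 to miR-373 list of pluripotent cells had 6 rises and no fall among 12 tested of 16 counted (median 1.45). In the cluster of chromosome 4 from 112647877 to 112648511, 6 of 8 miRNAs tested rose (median 2.54). Members near 0 in WT, such as miR-302a-3p with 0, 1 and 1 counts, could hardly fall. Of all 512 miRNAs tested under 20 CPM in WT, 255 rose and 1 fell. The early embryonic miR-302b-3p had 63, 65 and 25 counts in TNRC6A KO and 5, 1 and 4 in WT, a rise of 3.57 ± 0.51, miR-367-5p rose by 5.44 ± 0.67, miR-302a-5p by 2.88 ± 0.46 and miR-302c-5p by 2.20 ± 0.42. miR-372-3p, which the same stem cells express, had 2, 7 and 10 counts in TNRC6A KO and 12, 8 and 7 in WT. The chromosome 19 cluster of the placenta had 7 rises and 3 falls among 19 tested of 67 counted (median 0.80). In it miR-515-5p was at 1.94 ± 0.40 and miR-520d-3p at -1.36 ± 0.38. The imprinted 14q32 cluster had 10 rises and 7 falls among 41 (median 0.14), against 14 and 2 on the scale of all counts and 7 and 8 on the miRNA total. In it miR-381-5p rose by 2.03 ± 0.38, and miR-382-3p (-1.06 ± 0.33), miR-127-3p (-0.81 ± 0.32) and miR-539-3p (-1.13 ± 0.39) fell, although their changes were 0.15, 0.42 and 0.22 with rRNA left out of the total. The primate miR-548 family had 20 rises and 3 falls among 47 (median 0.85; 13 and 4 on the miRNA total), with miR-548q at 0.82 ± 0.29 and miR-548l at 0.84 ± 0.32, whose calls were lost on the miRNA total (adjusted p = 0.13 and 0.15).

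Blood and Argonaute-cleaved miRNAs had 3 rises and no fall among 9 (median 1.39): miR-486-3p, miR-144-5p (4.38 ± 0.60) and miR-142-3p, which had 23, 25 and 15 counts in TNRC6A KO and 7, 4 and 1 in WT (2.02 ± 0.46). The red-cell marker miR-451a stayed near 0 in both groups, as given above. Endothelial, stromal and muscle miRNAs had 7 rises and 1 fall among 15 (median 0.83; 4 and 1 on the miRNA total). miR-199a-3p, of fibroblasts, had 36, 29 and 22 counts in TNRC6A KO and 6, 9 and 5 in WT, and the endothelial miR-126-3p was at -0.24 ± 0.31. Neural miRNAs had no rise and 1 fall among 9 (median -0.38), with miR-128-3p at -0.29 ± 0.31. Members with so few counts in WT could hardly fall, and the part of other cells in these low counts was not tested.

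Base composition moved with the calls. The median GC content was 42.9% among miRNAs called higher, 63.8% among those called lower, 54.2% among those with no call and 52.4% among all with a sequence. In the class under 35% GC, 56.5% of 170 miRNAs rose and 4.12% fell; in the class of 75% or more, 3.76% of 133 rose and 60.9% fell. The classes in between were ordered: the median log2 fold change was 1.31, 0.71, 0.30, -0.24, -0.62 and -1.49 from the lowest to the highest class. The furthest falls printed above ranged from 40.9% GC in miR-5584-3p to 90.9% in miR-1469, and of the 5 largest rises miR-3684 had the lowest GC, at 42.9%. The share of miRNA counts from miRNAs of 65% GC or more was 3.80, 4.40 and 4.03% in TNRC6A KO, next to 4.25, 4.74 and 3.80% in TNRC6B KO, with 4.03, 4.72 and 2.95% in TNRC6A/B KO, and 8.75, 7.22 and 9.85% in WT. It was 10.6 to 22.4% in the AGO-knockout libraries, so the TNRC6 knockouts all lay below the other libraries. The part of this gradient in single calls was not tested.

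**Figure D3:**
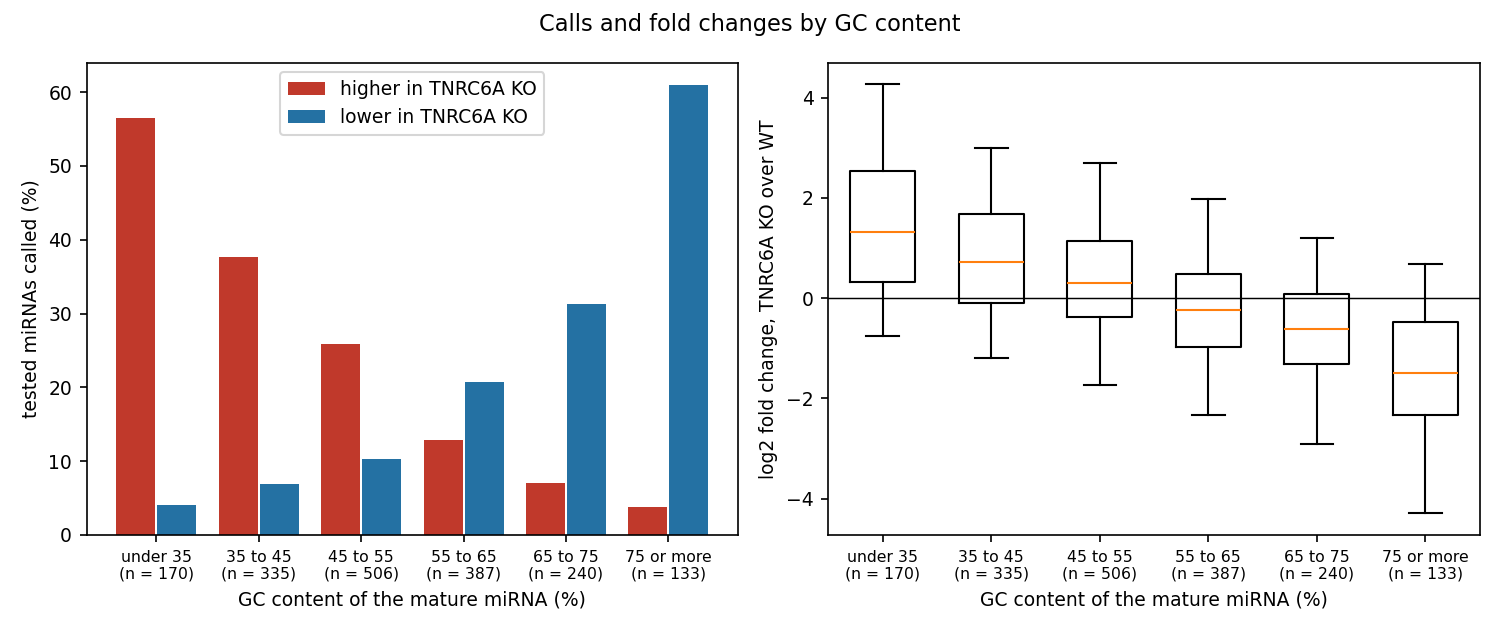
Left, the percentage of miRNAs called higher or lower in TNRC6A KO against WT in 6 classes of GC content. Right, boxes of the log2 fold change in the same classes (line, median; box, quartiles; whiskers, 5th to 95th percentile), whose medians run from 1.31 under 35% GC to -1.49 at 75% or more.

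Other features of the sequences moved less. The median length was 22 bases in each class of calls. A first base of G was found in 9.65% of the miRNAs called higher, 23.9% of those called lower and 14.5% of all with a sequence, and a first base of U in 40.2, 27.4 and 36.5%. Introns held 60.2% of the miRNAs called higher, 52.8% of those called lower and 58.4% of all, and exons held 13.6, 22.3 and 16.9%. Immunoprecipitates of AGO2 from WT cells, from other libraries of the series, were set against the same precipitation from AGO2-knockout cells. Levels in precipitates are CPM of all counts of the library, not of miRNA counts, with 0.5 CPM added to each for the ratio. Over 4-fold more in WT was found for 24 (5.09%) of the miRNAs called higher, 9 (2.48%) of those called lower, 109 (9.44%) of those with no call and 142 (7.14%) of all tested. For AGO1 the shares were 13.1, 6.06, 18.9 and 15.2%, so in both the share was lowest among the falls. miR-6787-5p had 6.58 CPM of all counts in the WT AGO2 precipitates, whereas let-7a-5p had 156920. miR-3684 had 1.32, in cells where it was also nearly absent from whole-cell RNA.

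The balance of the strands was tested for 147 hairpins with both strands counted, as the log2 ratio of 5p over 3p counts. It moved toward 5p in 30 hairpins (20.4%) and toward 3p in 37 (25.2%) in TNRC6A KO against WT (limma, adjusted p under 0.05). In 35 it moved toward the strand that WT AGO2 precipitates held more of, in 29 away from it, and in 3 that strand was not set. Of 56 hairpins called with both sequences known, 29 moved to the strand of lower GC, 16 to that of higher GC, and 11 had equal GC. The ratio of miR-5584 was 1.84, 2.03 and 2.03 in TNRC6A KO and -4.58, -3.21 and -5.37 in WT, so its major strand switched in every library (change 6.35 ± 0.72, adjusted p = 4.5e-07). The ratio of miR-5699 was -3.87, -4.86 and -4.80 in TNRC6A KO and 2.89, 0.45 and 2.32 in WT (change -6.39 ± 0.71). The ratio of miR-663a was 0.89, 0.26 and -0.09 in TNRC6A KO and 5.82, 6.15 and 6.74 in WT (change -5.88 ± 0.49). miR-5699 switched to 3p and miR-663a came to near balance. miR-6891 moved toward 3p (-5.15 ± 0.45), and miR-6729 (3.71 ± 0.57) and miR-4467 (3.67 ± 0.59) toward 5p.

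The snoRNA, tRNA and Y RNA shares changed by more than the miRNA share. snoRNAs with the related scaRNAs, which guide the modification of rRNA and snRNA, made up 4.07, 3.70 and 3.49% of all counts in TNRC6A KO, next to 3.81, 3.46 and 3.65% in TNRC6B KO, with 3.98, 3.66 and 4.29% in TNRC6A/B KO, and 0.141, 0.140 and 0.139% in WT. The share was 26.8 times the WT share, with no overlap (exact permutation p = 0.1), and the AGO-knockout libraries had 0.107 to 0.172%. Ribosomal RNA made up 57.8, 60.4 and 60.6% in TNRC6A KO and 39.4, 41.6 and 34.4% in WT, higher in all 3 libraries. Cytosolic tRNA made up 1.14, 1.11 and 0.720% in TNRC6A KO, next to 0.981, 0.983 and 0.891% in TNRC6B KO, with 1.20, 1.13 and 0.945% in TNRC6A/B KO, and 15.5, 12.9 and 20.2% in WT. The WT share was 16.4 times that of TNRC6A KO, and the AGO-knockout libraries overlapped the WT range and reached up to 28.2%. Mitochondrial tRNA made up 3.73, 2.60 and 2.37% in TNRC6A KO and 14.8, 14.0 and 16.6% in WT, and Y RNA 0.642, 0.546 and 0.406% in TNRC6A KO and 4.97, 4.84 and 5.23% in WT. Both were lower in every TNRC6A KO library.

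**Figure D4:**
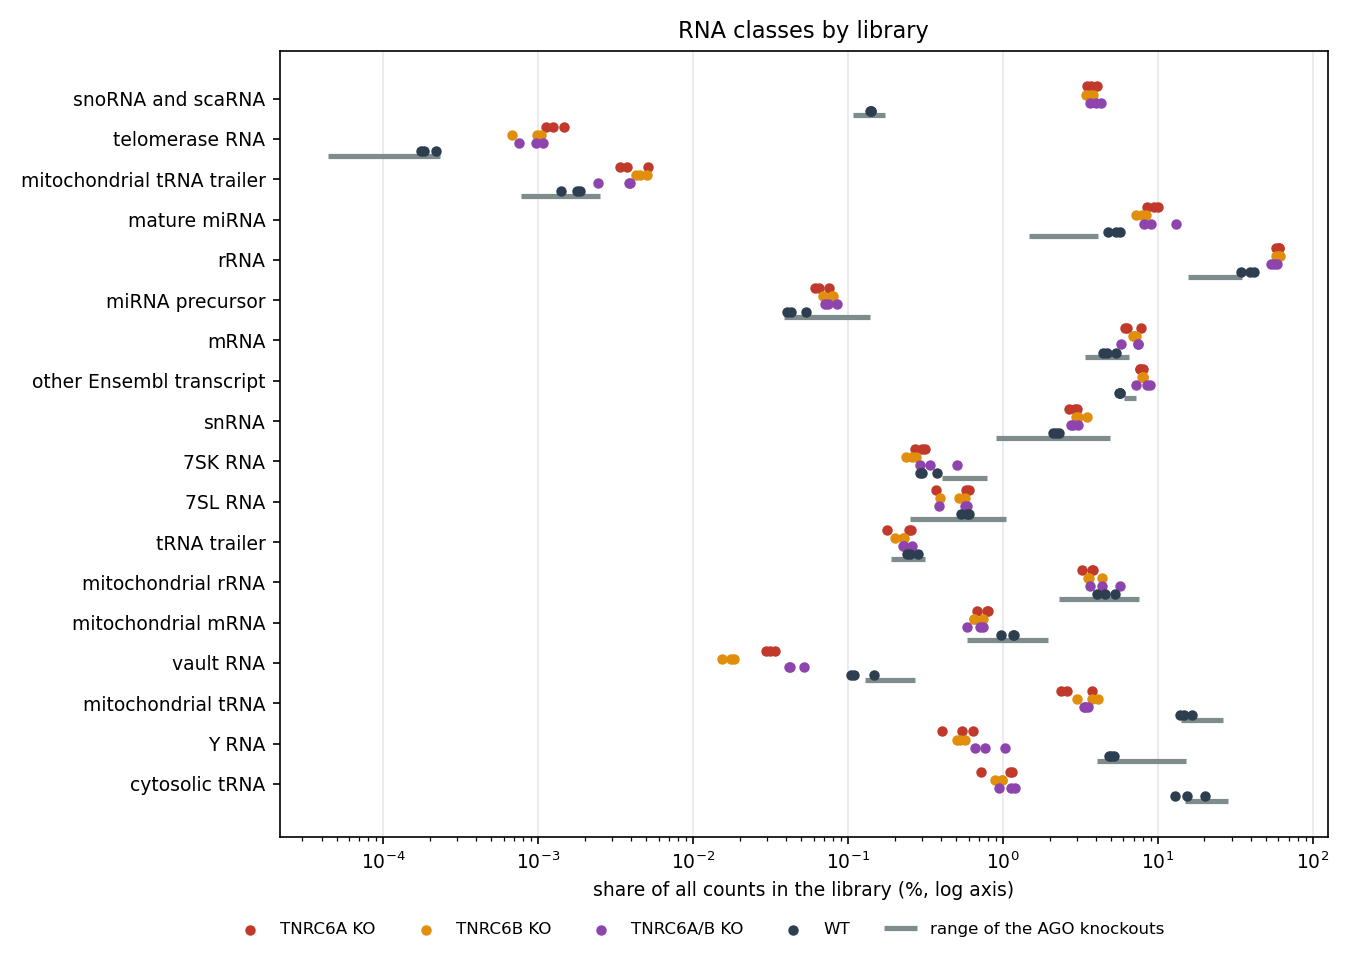
Share of all counts (percent, log axis) of 18 RNA classes, 1 point per library of TNRC6A KO, TNRC6B KO, TNRC6A/B KO and WT, and a grey bar for the range of the AGO-knockout libraries. snoRNA sits near 4% in all TNRC6 knockouts and near 0.14% in WT, cytosolic tRNA near 1% against 12.9 to 20.2%, and 7SK and 7SL RNA overlap.

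Over all 18770 features that passed the filter, 3352 rose (17.9%) and 3625 fell (19.3%) in TNRC6A KO cells (edgeR's quasi-likelihood test, TMM scaling, adjusted p under 0.05), with a median of 0.02. With all counts of the library as the scale, the split was 6265 higher and 2136 lower. Of 397 snoRNA features, 366 rose and 13 fell (median 4.57; 372 and 9 on the scale of all counts). Among C/D box snoRNAs, which guide methylation, 134 of 137 rose (median 5.36), and among H/ACA box snoRNAs, which guide pseudouridylation, 106 of 108 rose (median 4.38). SNORD49A had 943, 722 and 690 CPM of all features in TNRC6A KO and 1.87, 3.16 and 1.55 CPM in WT, a rise of 8.46 ± 0.43. SNORD42A averaged 2855 ± 176 CPM in TNRC6A KO and 40.3 ± 10.2 CPM in WT (SD, n = 3 each), a rise of 6.15 ± 0.44. SNORD3A, the U3 snoRNA of rRNA cleavage, rose by 3.51 ± 0.31 in its most abundant row. The snoRNA rows were high in each TNRC6A KO library and low in each WT library. SNORD127 had 50.1, 45.3 and 43.2 CPM in TNRC6A KO and 0, 0 and 0.221 CPM in WT.

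Some other noncoding RNAs rose too. SNHG5, a host of C/D snoRNAs, had 1959, 1728 and 1431 CPM in TNRC6A KO and 25.4, 26.3 and 20.4 CPM in WT (6.15 ± 0.38). The GAS5 host rose by 5.79 ± 0.38 and 6.08 ± 0.42 in its 2 most abundant rows. RMRP, the RNA of RNase MRP, had 2143, 1894 and 1628 CPM in TNRC6A KO and 402, 376 and 394 CPM in WT (2.27 ± 0.29). The groups were separate for each. The miRNA precursor mir-1248, whose hairpin overlaps a snoRNA, rose by 6.48 ± 0.38, and of 44 precursors 14 rose and 9 fell (20 and 3 on the scale of all counts). The telomerase RNA had 11.7, 8.79 and 8.86 CPM in TNRC6A KO and 2.08, 1.78 and 2.66 CPM in WT (2.15 ± 0.31, adjusted p = 7.9e-07). Its share of all counts was also above all TNRC6B KO and TNRC6A/B KO libraries, on 166 counts in TNRC6A KO and 31 in WT. With Ensembl transcripts left out of the total, the share overlapped with TNRC6A/B KO. In edgeR's test the differences of 0.50 against TNRC6B KO and 0.41 against TNRC6A/B KO did not pass.

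tRNA counts fell across the amino acids. Of 411 cytosolic tRNA features, 406 fell and 3 rose (median -3.52; 399 and 3 on the scale of all counts). The medians were -6.59 for all 13 aspartate, -6.09 for 9 histidine and -5.35 for 28 arginine tRNA rows, and -2.30 for 20 proline rows, each of which fell. Both nuclear copies of mitochondrial-like tRNAs rose (median 1.94). tRNA-Asp-GTC-2-4 had 19.3 to 28.8 CPM in TNRC6A KO and 12703, 6862 and 14808 CPM in WT (log2 fold change -8.90 ± 0.55). tRNA-Arg-TCG-3-1 had 43.6, 47.3 and 22.0 CPM in TNRC6A KO and 15482, 10050 and 27405 CPM in WT (-8.88 ± 0.73). tRNA-Ala-TGC-3-2, 1 of the most abundant rows, changed less (-2.62 ± 0.35). The groups did not overlap in any of them, and the split of reads between near-identical tRNA copies depends on the authors' counting. The arginine tRNAs together made up 0.0842, 0.0848 and 0.0477% of all counts in TNRC6A KO and 3.77, 3.08 and 6.35% in WT.

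Of 42 mitochondrial tRNA features, 25 fell and 5 rose (19 and 11 on the scale of all counts). MT-TQ, the glutamine tRNA, had 4.41, 4.73 and 3.34 CPM in TNRC6A KO and 1299, 1114 and 2055 CPM in WT (-8.49 ± 0.57). The mitochondrial glutamate tRNA had 2412, 1435 and 982 CPM in TNRC6A KO and 71099, 68536 and 69767 CPM in WT (-5.44 ± 0.50). MT-TD, the aspartate tRNA, went the other way, with 168, 74.0 and 50.6 CPM in TNRC6A KO and 13.7, 10.3 and 10.4 CPM in WT (3.08 ± 0.39). Mitochondrial mRNAs had 8 falls and 1 rise among 13, against 3 and 4 on the scale of all counts, with MT-ATP8 at -3.16 ± 0.43, MT-CYB at -2.64 ± 0.37 and MT-ND4L at 0.81 ± 0.30. Neither mitochondrial rRNA passed.

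Y RNA features, the partners of the Ro60 protein, had 236 falls and 2 rises among 294 (median -2.40), many of them pseudogene copies. RNY4 had 272, 268 and 135 CPM in TNRC6A KO and 10635, 8866 and 11641 CPM in WT (-5.53 ± 0.57). RNY1 had 734, 583 and 518 CPM in TNRC6A KO and 540, 480 and 607 CPM in WT, with overlap (0.17 ± 0.27, adjusted p = 0.66), and RNY5 rose by 1.18 ± 0.30. RNY4P25 and RNY4P18, copies of RNY4, fell with it (-7.27 and -6.19). All 6 vault RNA features fell (median -2.61). VTRNA1-1, part of the vault particle, had 36.8, 39.4 and 32.9 CPM in TNRC6A KO and 460, 433 and 567 CPM in WT (-3.74 ± 0.30), and VTRNA2-1 fell by 2.58 on the log2 scale. The vault share was 0.0296, 0.0336 and 0.0315% in TNRC6A KO, next to 0.0184, 0.0177 and 0.0153% in TNRC6B KO, with 0.0422, 0.0417 and 0.0518% in TNRC6A/B KO, and 0.109, 0.104 and 0.148% in WT. It was separate in all 4 groups.

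Spliceosomal snRNA made up 2.66, 3.01 and 2.91% of all counts in TNRC6A KO and 2.30, 2.11 and 2.20% in WT. The U2 share was 0.957, 0.824 and 0.839% in TNRC6A KO and 0.204, 0.181 and 0.183% in WT, higher in every TNRC6A KO library, while U6, at 1.46, 1.93 and 1.83% in TNRC6A KO and 1.89, 1.76 and 1.73% in WT, overlapped. Of 262 snRNA features, 19 rose and 152 fell (38 and 131 on the scale of all counts). 7SK and 7SL RNA shares overlapped between the groups. Of 110 7SK features 92 fell and 4 rose (median -3.71), and of 137 7SL features 48 fell and 8 rose (32 and 23 on the scale of all counts); these rows are largely pseudogene copies. Of 21 rRNA features, 2 rose and 10 fell (5 and 8 on the scale of all counts), with the 28S and 18S rows at -0.07 ± 0.41 and 0.31 ± 0.40. The 5S share was 0.132, 0.148 and 0.0824% of all counts in TNRC6A KO and 0.240, 0.244 and 0.151% in WT, without overlap (ratio 0.571, exact permutation p = 0.1).

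mRNA fragments made up 6.15, 6.29 and 7.79% of all counts in TNRC6A KO and 4.69, 5.37 and 4.43% in WT, without overlap. Of 9077 mRNA features, 1190 rose and 1089 fell (median 0.03), and 2823 were higher and 320 lower on the scale of all counts. LAMP2, a lysosomal membrane protein, had 226, 302 and 293 CPM in TNRC6A KO and 5.82, 6.32 and 4.65 CPM in WT (5.60 ± 0.32). KRT19, an epithelial keratin, rose by 1.87 ± 0.33, and GAPDH, a glycolytic enzyme, by 0.99 ± 0.24. MAL2, a protein of apical transport in epithelia, had 0, 0.169 and 0 CPM in TNRC6A KO and 16.8, 12.8 and 12.2 CPM in WT. These are fragments of mRNA in a small RNA library, and their numbers need not follow the mRNA.

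The direct comparisons with the other TNRC6 knockouts gave few calls. Against TNRC6B KO, 5 miRNAs differed (0.251% of 1990), and against TNRC6A/B KO 3 (0.151%), by edgeR's quasi-likelihood test. The median absolute log2 fold change was 0.298 against TNRC6B KO, 0.276 against TNRC6A/B KO and 0.916 against WT. Over 2-fold differences were seen in 109 miRNAs against TNRC6B KO, 87 against TNRC6A/B KO and 912 against WT. Of the 115 miRNAs at 1000 CPM or more in WT, 0 differed over 2-fold from TNRC6B KO, 1 from TNRC6A/B KO and 42 from WT. At an unadjusted p under 0.05 the counts were 115 against TNRC6B KO and 105 against TNRC6A/B KO. The number of calls moved with single libraries: against TNRC6B KO, 1 call was made without TNRC6A KO replicate 3, 2 without TNRC6B KO replicate 1, and 3 without TNRC6A KO replicate 2 or without TNRC6B KO replicate 2 or 3. Against TNRC6A/B KO, 1 was made without TNRC6A KO replicate 1, and 6 were made without TNRC6A/B KO replicate 3.

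miR-302b-3p stood out in both. It had 63, 65 and 25 counts in TNRC6A KO, against 5, 5 and 4 counts in TNRC6B KO, 13, 10 and 10 counts in TNRC6A/B KO, and 5, 1 and 4 counts in WT. Every TNRC6A KO library was above every library of the other 3 groups. It was higher in TNRC6A KO by 3.18 ± 0.48 against TNRC6B KO (adjusted p = 9.6e-05) and by 2.55 ± 0.42 against TNRC6A/B KO (adjusted p = 0.00059). Its neighbour miR-302a-5p had 32, 39 and 35 counts in TNRC6A KO and 6, 13 and 15 counts in TNRC6A/B KO, separate groups with a difference of 1.97 ± 0.38 (adjusted p = 0.0062).

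miR-139-5p had 423, 384 and 461 CPM in TNRC6A KO, 43.9, 126 and 194 CPM in TNRC6B KO, and 129, 159 and 115 CPM in WT. Each TNRC6A KO library was above TNRC6B KO and WT (1.81 ± 0.37 against TNRC6B KO, edgeR adjusted p = 0.0089). With 311, 207 and 585 CPM, TNRC6A/B KO overlapped with TNRC6A KO. miR-1229-3p, from a mirtron of MGAT4B, had 932, 874 and 1027 CPM in TNRC6A KO and 391, 363 and 345 CPM in TNRC6B KO (1.36 ± 0.31, edgeR adjusted p = 0.031). It had 954, 645 and 1893 CPM in TNRC6A/B KO, which overlapped with TNRC6A KO, and 314, 426 and 336 CPM in WT. For both miRNAs, separation of TNRC6A KO from TNRC6B KO was a condition for naming them. miR-1286-5p had 42.3, 60.8 and 19.2 CPM in TNRC6A KO, 144, 202 and 175 CPM in TNRC6B KO, and 8.05, 0 and 4.42 CPM in WT. TNRC6A KO thus lay between TNRC6B KO and WT (-2.06 ± 0.38 against TNRC6B KO, edgeR adjusted p = 0.0031). TNRC6A/B KO overlapped with TNRC6A KO, at 42.5, 48.6 and 24.6 CPM. miR-942-5p had 42.3, 33.2 and 48.0 CPM in TNRC6A KO and 140, 105 and 123 CPM in TNRC6B KO (-1.57 ± 0.34, adjusted p = 0.018). miR-224-5p had 351, 307 and 592 CPM in TNRC6A KO, 1709, 1608 and 618 CPM in TNRC6A/B KO, and 390, 443 and 345 CPM in WT. It was lower than in TNRC6A/B KO by 1.65 on the log2 scale (adjusted p = 0.011), with the third TNRC6A/B KO library close to TNRC6A KO. With the replicate number as a block, the calls against TNRC6A/B KO were 5, with miR-3941-5p (1.52, adjusted p = 0.061 without and 0.027 with the block) and miR-598-3p (-1.74, adjusted p = 0.33 and 0.033) added.

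**Figure D5:**
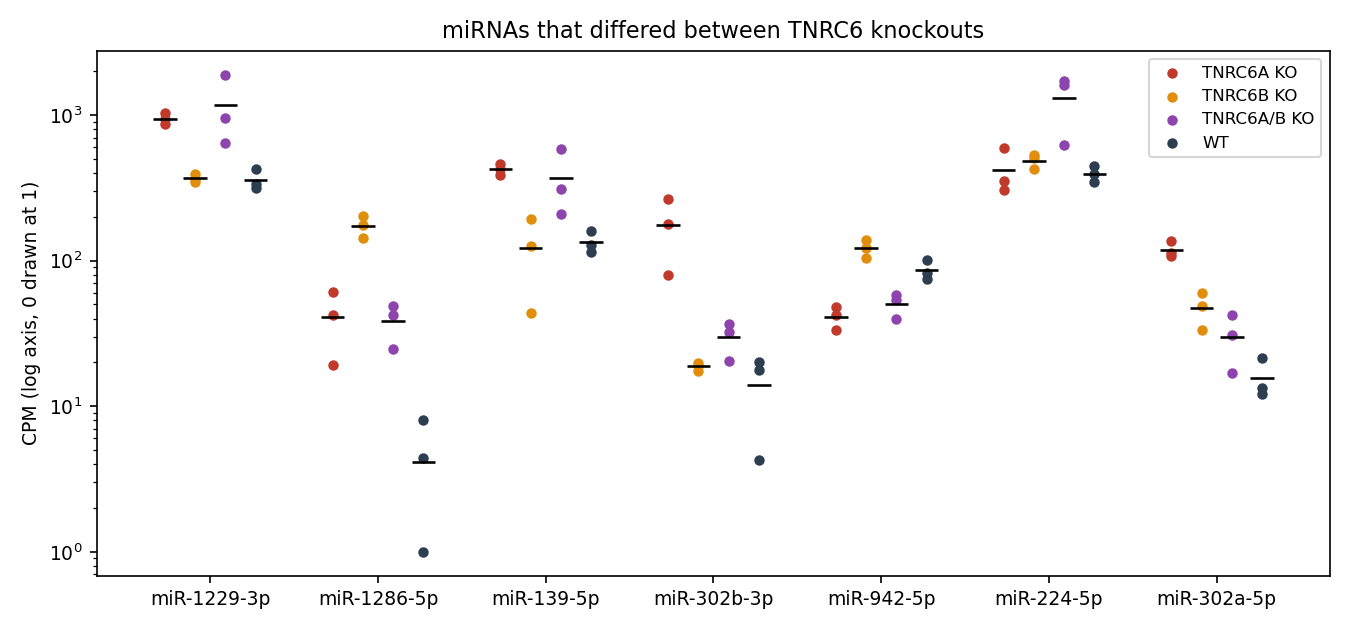
CPM (log axis, 0 drawn at 1) of the 7 miRNAs that differed between TNRC6A KO and another TNRC6 knockout, 1 point per library of TNRC6A KO, TNRC6B KO, TNRC6A/B KO and WT, with a line at each group's mean. miR-302b-3p is highest in TNRC6A KO, at 80.0 to 267 CPM, and miR-1286-5p in TNRC6B KO, at 144 to 202 CPM.

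Over all features, 43 differed from TNRC6B KO (0.229%; 38 higher and 5 lower in TNRC6A KO) and 36 from TNRC6A/B KO (0.192%; 25 higher and 11 lower). The targeted genes were among them. A TNRC6A transcript averaged 1.23 ± 0.76 CPM in TNRC6A KO (SD, n = 3), against a mean of 4.12 CPM in TNRC6B KO (-1.66, adjusted p = 0.037), and a TNRC6B transcript was higher in TNRC6A KO than in TNRC6A/B KO by 2.24 (adjusted p = 0.0055). Fragments of VCAN, a matrix proteoglycan, were higher in TNRC6A KO than in TNRC6B KO by 1.67 to 2.42 in 4 transcript rows that share reads. S100A10, which binds annexin A2, was higher by 1.31 and CDK6, a cell cycle kinase, by 1.15. CAV1, the caveolin of plasma membrane pits, was higher by 1.41 against TNRC6B KO and 1.38 against TNRC6A/B KO in 1 of its transcript rows. MAL2 was lower than in either (adjusted p = 1.7e-05 against a mean of 6.81 CPM in TNRC6B KO and 0.0026 against 3.39 CPM in TNRC6A/B KO). The strand balance differed from TNRC6B KO in 2 hairpins, both toward 5p, and from TNRC6A/B KO in none, by limma at the same threshold.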

How the data were processed

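Per the submitters' processing notes, the authors used cutadapt 1.16 and Bowtie 1.1.2 with hg38; further settings were not given in these sources. They deposited raw counts for 167112 features a library: rRNA, tRNA, mature and precursor miRNA, other small RNAs and 162398 Ensembl transcript rows, of which 156973 (96.7%) were named by GENCODE v29. The 573 rows of miRNA variants were summed to their miRNA, giving 2817; they held 1.61 to 1.95% of miRNA counts in TNRC6A KO and 2.42 to 3.01% in WT.

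The members, lists and tests were chosen with earlier results of these data known. The 24 whole-cell libraries were fitted together with edgeR 4.0.16 (filterByExpr, at least 10 counts; TMM; quasi-likelihood test; R 4.3.3), for mature miRNAs and for all features, with Benjamini-Hochberg adjusted p under 0.05. Strand ratios (pseudocount 0.5, at least 10 counts in the minor strand and 50 in both) were tested with limma 3.58.1, and shares with two-sided exact permutation tests. The fits were tested on simulated data. Named were the 12 largest rises and falls at 20 CPM or more without overlap, the 10 most abundant miRNAs of WT, the 4 most abundant of each list, 3 hairpins each way, 3 features each way per class and the calls of the direct comparisons. Alternatives were other scalings, DESeq2 1.42.0, filters, samples in the fit, a replicate block and leaving out each replicate. Depth was 3086455 to 5527934 counts a library, which leaves few counts for rare miRNAs. Replicate numbers paired TNRC6A KO with TNRC6B KO (correlation of same-numbered libraries 0.181 to 0.199) and TNRC6A/B KO (0.259 to 0.384), as every same-numbered pair exceeded 0.1. The differently numbered TNRC6A KO replicate 2 and TNRC6B KO replicate 1 also did (0.109). The main fit had no replicate block, and the alternative with a block shared its replicate effects over all 24 libraries. DROSHA knockout and siRNA samples were not analysed here. The miRNAs of 1 list are not reported here.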

Additional observations from a re-analysis of the deposited data

How the results depend on the processing

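For TNRC6A KO against WT, all alternatives gave 683 to 1281 miRNA calls against 835, with none of the 835 called the opposite way. The fewest, 683 of 1130 miRNAs tested, came from a fit of the 6 libraries alone. The split depended on the scale: 763 higher and 188 lower by all counts, 843 and 172 without Ensembl transcripts in the total, and 1171 and 110 (1281 calls) without rRNA in it. Leaving out 1 library gave 704 to 774 calls (387 to 441 higher, 317 to 342 lower). Replicate numbers did not pair TNRC6A KO with WT (correlations -0.030, -0.117 and -0.026); a replicate block gave 476 higher and 372 lower. Over all features, the split was 6265 and 2136 by all counts, 760 and 756 (1516 calls of 2419 tested) without Ensembl transcripts, and 1897 and 3866 by the miRNA total, a scale chosen after seeing the data; leaving out 1 library gave 6042 to 6548 (2804 to 3045 higher, 3176 to 3596 lower). At 30 and 150 counts or more, 27 of 47 hairpins were called (11 and 16), and leaving out 1 library gave 50 to 62 (20 to 28 and 26 to 34).

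Against TNRC6B KO, 1 miRNA was lower by the miRNA total or all counts, and leaving out 1 library gave 1 to 5 calls (1 to 3 higher, 0 to 2 lower), 1 without TNRC6A KO replicate 3. Against TNRC6A/B KO, 1 was higher by the miRNA total, DESeq2 gave 5 calls (2 lower), the replicate block 5 (2 lower), and leaving out 1 library 1 to 6 (1 to 3 higher, 0 to 3 lower), 1 without TNRC6A KO replicate 1. The block changed no other count by over 1.5 times. The miRNA share ratio was 2.68 without rRNA in the total. Under that total, directions reversed for miR-7-5p (0.19), miR-320a-3p (0.30), miR-382-3p (0.15), miR-127-3p (0.42), miR-539-3p (0.22), miR-942-5p (0.17), and the mitochondrial mRNA (1.03) and rRNA (1.18) share ratios. Of 2121 checks of named results, 1917 kept their call, 100 lost and 98 gained one, and 6 reversed. The causes were not tested. Depth limits rare miRNAs, with 3 counts in a group equal to 3.30 CPM in TNRC6A KO and 4.24 in WT.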
